A study of Mus musculus with 6 samples.

Results

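The genes described here encode fibronectin (Fn1), the matricellular proteins periostin (Postn), Sparc, tenascin C (Tnc), thrombospondin 1 (Thbs1) and thrombospondin 2 (Thbs2), the elastic fiber proteins fibrillin 1 (Fbn1) and elastin (Eln), and the crosslinking enzymes Lox and Loxl1. They were chosen by symbol, 10 of the 26264 gene symbols listed in each library, with earlier results of these data known. Bulk RNA sequencing was available for 6 libraries of immortalized brown preadipocytes of mouse and of the adipocytes made from them, 2 treatments at 3 days with 1 library each. The cells came from the stromal vascular fraction of interscapular brown fat of wild-type Bl6N mice and had been immortalized with the SV40 large T antigen, which all 6 libraries share. FGF8-pretreated cells received FGF8 at 5.5 nM for 48 h, and untreated cells did not; the methods of the study call the controls vehicle-treated. Cells were harvested at the end of pretreatment (day 0), on day 3 and on day 9, after 2 days of induction medium followed by differentiation medium. The labels call the last harvest D7. The study counts its last time point as day 9, with 2 days on induction medium and 7 on differentiation medium. D7 was taken to be that time point. A growth protocol for primary white preadipocytes accompanies the samples, but the titles name immortalized brown cells, and that name is kept here. Each condition was 1 culture and 1 library, so no difference within a day has a replicate check and none is given a p-value.

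The extracellular matrix that preadipocytes deposit is dense in fibrillar proteins, and it is remodelled while the cells round up and fill with lipid. Fibronectin is assembled into fibrils through integrins, and matricellular proteins sit in the matrix without being its main scaffold and modify how cells adhere and how growth factors reach them. Elastic fibers consist of an elastin core on a scaffold of fibrillin microfibrils, and enzymes of the lysyl oxidase family crosslink elastin and collagen. Fibroblast growth factors signal through receptor tyrosine kinases and the ERK pathway.

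The libraries held between 16403254 and 38551551 counts, and each of the 10 genes had at least 85 counts in every library. Levels are normalized counts, that is, counts over the size factor of the library. The preadipocyte identity of day 0 was checked with marker genes. Pdgfra, a receptor of mesenchymal progenitors, had 68261 normalized counts without and 9680 with FGF8, and Adipoq, which encodes the adipocyte hormone adiponectin, had 1.47 and 0. Of 8 mature adipocyte markers, 5 were at or under 3 counts in the untreated library of day 0 and 4 in the FGF8-pretreated one, and none at days 3 and 9. Ucp1, which marks brown adipocytes, had 0, 319.5 and 91306 normalized counts in untreated cells at days 0, 3 and 9. In pretreated cells Ucp1 had 1328, 4287 and 99587, higher at days 0 and 3, with a log2 fold change of only 0.13 at day 9. Summed over the 10 genes of interest, the untreated libraries had 752473, 344281 and 322704 normalized counts at days 0, 3 and 9. The corresponding sums in FGF8-pretreated cells were 332041, 122997 and 133192, lower on each day.

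Sequence upstream of the genes was read from GRCm39 at the start of the canonical transcript of the GENCODE M39 annotation, 200 bases for each of 9 of the 10 genes. Printed here are the windows of Fn1 and Tnc, which were higher in the FGF8-pretreated library at day 0 and lower later, and of Thbs1 and Thbs2, which were lower on all 3 days. Capitals mark matches, on either strand, of 6 motifs that were chosen with the expression values known: the AP-1 site TGANTCA, the cAMP response element TGACGTCA, the TEAD site CATTCC, the GC box GGGCGG, the TATA box TATAAA and the CArG box. No overlap among the matches occurred in these 4 windows.
Fn1, chr1:71692420-71692619, minus strand: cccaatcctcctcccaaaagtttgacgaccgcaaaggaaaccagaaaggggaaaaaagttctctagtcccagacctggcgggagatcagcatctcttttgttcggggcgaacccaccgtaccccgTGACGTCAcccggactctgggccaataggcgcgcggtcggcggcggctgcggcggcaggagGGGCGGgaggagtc
Tnc, chr4:63965444-63965643, minus strand: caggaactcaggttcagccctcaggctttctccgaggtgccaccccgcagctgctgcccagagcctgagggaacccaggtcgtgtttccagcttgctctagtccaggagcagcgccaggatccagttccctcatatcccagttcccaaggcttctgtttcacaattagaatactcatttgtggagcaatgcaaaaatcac
Thbs1, chr2:117941774-117941973, plus strand: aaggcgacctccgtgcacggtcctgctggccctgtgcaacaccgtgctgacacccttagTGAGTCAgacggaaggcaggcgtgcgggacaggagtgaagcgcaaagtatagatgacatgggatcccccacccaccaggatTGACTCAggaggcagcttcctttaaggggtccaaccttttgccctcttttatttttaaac
Thbs2, chr17:14914529-14914728, minus strand: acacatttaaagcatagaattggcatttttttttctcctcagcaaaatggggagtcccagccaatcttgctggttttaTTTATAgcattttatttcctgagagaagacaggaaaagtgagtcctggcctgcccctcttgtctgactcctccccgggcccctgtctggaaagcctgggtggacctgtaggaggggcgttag

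The Fn1 window holds a cAMP response element that starts 75 bases before the transcript start and a GC box 14 bases before it. Of 18609 windows of the same length upstream of protein-coding genes, 1.70% hold the first motif and 38.2% the second. Thbs1 has AP-1 sites at 141 and 60 bases, a motif found in 4.81% of windows, and Thbs2 has a TATA box, in reverse orientation, at 122 bases (8.47% of windows). No letters of the 6 motifs were matched upstream of Tnc, Postn, Sparc or Eln. The Fbn1 window had a CArG box at 138 bases (1.09% of windows), and the Loxl1 window had a TEAD site at 170 bases (9.47% of windows) and a GC box at 181 bases. A match is a description of the letters in the window and not a measurement of binding.

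Levels of different genes can be compared only per length, and they are given here as counts per kilobase of merged exons, scaled to a common total over all genes with a length (per-length units). On that scale Postn was the highest of the 10 in untreated preadipocytes, at 6594 per-length units (rank 3 among all genes of the library). Sparc followed at 6175 (rank 5) and Lox at 4826 (rank 9), while Thbs2 stood at 2262 (rank 29) and Fn1 at 1830 (rank 42). In the FGF8-pretreated preadipocytes the order was different. Fn1 was then the highest at 3163 units (rank 13), Sparc stood at 1316 (rank 56), Tnc at 864.0 (rank 114), Postn at 573.0 (rank 205) and Lox at 231.2 (rank 774). In the other 4 libraries Sparc was the highest, with ranks between 4 and 24. The lowest of the 10 was Eln at days 0 and 9 and Tnc at day 3 in both groups. With the length of the canonical transcript, a choice added after the data were seen, the highest gene of each library was the same, Tnc was the lowest also at day 9, and in FGF8-pretreated preadipocytes Postn stood at 814.5 (rank 124) and Lox at 122.6 (rank 1795).

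**Figure D1:**
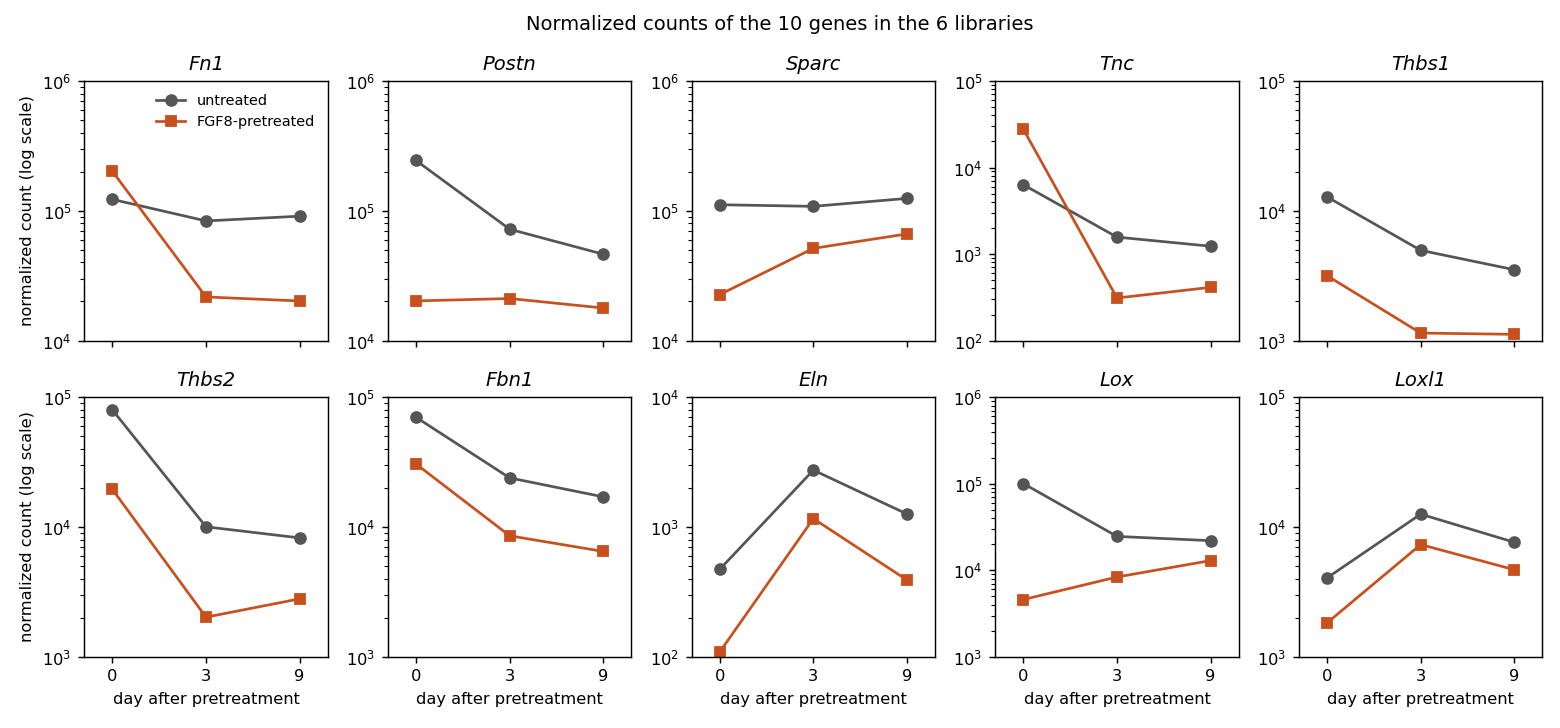
Normalized counts (y axis, log scale, a range of its own in each panel) of the 10 genes against the day after pretreatment (x axis), with 1 library per point, grey circles for untreated and orange squares for FGF8-pretreated cells. The orange line lies under the grey one at all 3 days in 8 panels, and starts above it at day 0 for Fn1 and Tnc.

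Fibronectin, the main fibrillar adhesion protein among the 10, was higher after FGF8 at day 0 and lower afterwards. Fn1 (ENSMUSG00000026193; chromosome 1, 71624673 to 71692419, minus strand) had 122503 normalized counts in untreated and 201673 in FGF8-pretreated cells at day 0. On day 3 it had 83538 and 21691, and on day 9 it had 90882 and 20180. The 3 untreated libraries lay within 2-fold of one another, while the pretreated libraries of days 3 and 9 were far under that of day 0. The log2 fold change of FGF8-pretreated against untreated cells was 0.72 at day 0 (95% exact binomial interval 0.71 to 0.73), -1.95 at day 3 (-1.96 to -1.93) and -2.17 at day 9 (-2.19 to -2.15), the last of which is 4.50-fold. These intervals cover the counting error of the 2 libraries only, not the variation between cultures, and reads without molecular identifiers are not independent molecules. In bulk samples, fewer cells of a type and less RNA per cell cannot be told apart.

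Tenascin C, a matricellular protein of developing and wounded tissue, had the widest range of the 10. Tnc (ENSMUSG00000028364; chromosome 4, 63878014 to 63965443, minus strand) had 6329 normalized counts in untreated and 27735 in FGF8-pretreated preadipocytes. By day 3 these levels were 1569 and 310.3, and by day 9 they were 1232 and 412.2. It was 4.38-fold higher at day 0 (log2 fold change 2.13, interval 2.08 to 2.18) and 5.04-fold lower at day 3 (-2.33, interval -2.50 to -2.18). At day 9 the log2 fold change was -1.58 (-1.72 to -1.44). Tnc was the 1 gene of the 10 at least 2-fold higher at day 0, where 7.27% of all genes tested were.

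Periostin and Sparc, both collagen-binding matricellular proteins, were lower after FGF8 on each day, and most so at day 0. Postn (ENSMUSG00000027750; chromosome 3, 54268501 to 54298471, plus strand) had 244198, 72099 and 46265 normalized counts in untreated cells at days 0, 3 and 9. In FGF8-pretreated cells it had 20207, 21083 and 17808, so these 3 libraries lay close together and under every untreated library. The log2 fold changes were -3.60 (-3.62 to -3.57), -1.77 (-1.79 to -1.75) and -1.38 (-1.40 to -1.36), or 12.1-fold, 3.42-fold and 2.60-fold lower. Sparc (ENSMUSG00000018593; chromosome 11, 55285317 to 55314067, minus strand) had a nearly level course in untreated cells, at 111357, 108202 and 124605. In FGF8-pretreated cells it had 22604, 51336 and 66365. All 3 pretreated libraries were under all 3 untreated ones, and the gap was widest at day 0. Its log2 fold changes were -2.30 (-2.32 to -2.28), -1.08 (-1.09 to -1.06) and -0.91 (-0.92 to -0.90).

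The thrombospondins, secreted glycoproteins that bind cell-surface receptors and restrain angiogenesis, had the same order at each day, with the pretreated library lower. Thbs1 (ENSMUSG00000040152; chromosome 2, 117941974 to 117957616, plus strand) had 12806, 4960 and 3514 normalized counts in untreated cells and 3163, 1142 and 1116 in FGF8-pretreated cells. The pretreated library of day 0 was under the untreated libraries of all days. Thbs2 (ENSMUSG00000023885; chromosome 17, 14885761 to 14914528, minus strand), which was the more abundant of the pair per length in every library, had 80007, 10041 and 8248 in untreated and 19518, 2020 and 2797 in pretreated cells. The paralogs had log2 fold changes close to each other: -2.02 (-2.08 to -1.95), -2.12 (-2.20 to -2.03) and -1.65 (-1.74 to -1.57) for Thbs1, and -2.04 (-2.06 to -2.01), -2.31 (-2.38 to -2.25) and -1.56 (-1.62 to -1.50) for Thbs2. At day 0 Thbs1 was 4.05-fold and Thbs2 4.10-fold lower.

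Fibrillin 1, the backbone of microfibrils, had the most even difference of the 10 across days. Fbn1 (ENSMUSG00000027204; chromosome 2, 125142514 to 125349913, minus strand) had 70119, 23921 and 17075 normalized counts in untreated and 30619, 8562 and 6484 in FGF8-pretreated cells. The log2 fold changes were -1.20 (-1.22 to -1.17), -1.48 (-1.52 to -1.45) and -1.40 (-1.43 to -1.36). Elastin, the core protein of the elastic fiber, was the least abundant of the 10 at day 0, per length too. Eln (ENSMUSG00000029675; chromosome 5, 134731445 to 134776322, minus strand) had 471.5, 2745 and 1259 in untreated and 108.8, 1161 and 390.2 in pretreated cells. Both groups were highest at day 3, and the pretreated library was the lower one on each day. With 321 and 85 counts behind it, the log2 fold change of day 0 had the widest interval, -2.11 (-2.48 to -1.77). At days 3 and 9 it was -1.24 (-1.33 to -1.15) and -1.69 (-1.84 to -1.54).

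Lysyl oxidase, which oxidizes lysine residues of collagen and elastin for crosslinking, had the largest difference of the 10 at day 0. Lox (ENSMUSG00000024529; chromosome 18, 52649136 to 52663110, minus strand) had 100629 normalized counts in untreated and 4590 in FGF8-pretreated preadipocytes, 21.9-fold lower, a log2 fold change of -4.45 (-4.50 to -4.41). By day 3 the levels were 24635 and 8365 (log2 fold change -1.56, interval -1.59 to -1.53), and by day 9 they were 21999 and 12953 (-0.76, interval -0.79 to -0.74). The gap was smaller at each later day, since the untreated level was lower and the pretreated level higher at each later day. Loxl1 (ENSMUSG00000032334; chromosome 9, 58195014 to 58220495, minus strand), the paralog tied to elastic fiber maintenance, was highest at day 3 in both groups, as elastin was. It had 4053, 12572 and 7626 normalized counts in untreated and 1823, 7328 and 4687 in pretreated cells. Its log2 fold changes were -1.15 (-1.25 to -1.06), -0.78 (-0.82 to -0.74) and -0.70 (-0.75 to -0.66).

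**Figure D2:**
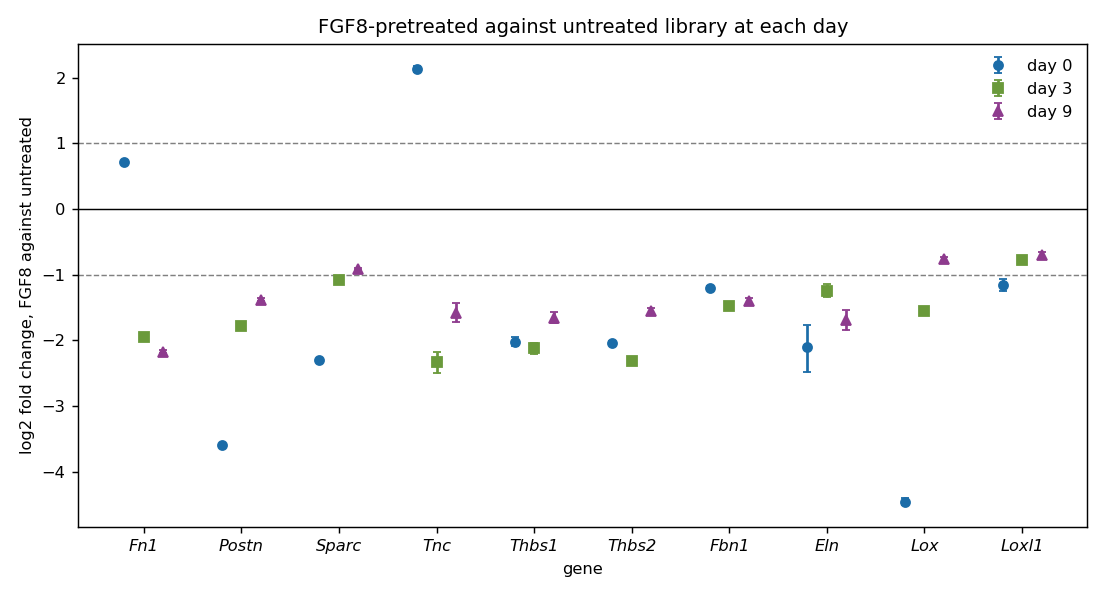
The log2 fold change of FGF8-pretreated against untreated cells (y axis) for each of the 10 genes (x axis) at day 0 (circles), day 3 (squares) and day 9 (triangles), with bars for the 95% exact binomial interval, which covers counting error only, and dashed lines at 2-fold. At days 3 and 9 all symbols lie under 0, and at day 0 Fn1 (0.72) and Tnc (2.13) lie above it.

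To count the 10 genes beside all genes, a 2-fold rule was applied wherever the 2 libraries averaged 20 normalized counts or more. At day 0, 8 of the 10 were at least 2-fold lower, where 10.8% of 12657 genes were. On day 3 the rule gave 9 lower (all but Loxl1) beside 12.1% of 12892 genes, and 0 higher beside 3.80%. At day 9 it gave 7 lower (all but Sparc, Lox and Loxl1) beside 8.74% of 13070 genes, and 0 higher beside 1.12%. The median log2 fold change of the 10 was -2.03, -1.67 and -1.48 on the 3 days, and that of all genes was 0.054, 0.081 and 0.083. The comparisons of different days do not share libraries, but each rests on 1 library per group.

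Whether FGF8 had an effect common to the days was tested on all 6 libraries by edgeR's quasi-likelihood method. Day was a block, and Benjamini-Hochberg adjustment ran over 14569 genes. In this fit the days stand in for replicates, and any change of the response from day to day adds to the error. The test called 1.25% of the genes lower and 0.0206% higher. Of the 10 genes, 3 were called lower and 0 higher. None of the 10 had a fitted change above 0 in this fit or in DESeq2's Wald test with the same day block. In edgeR without the day block and without day 3, the fitted change of Tnc was above 0 (1.61 and 0.25). Thbs1 fell by 1.95 on the log2 scale (SE 0.164, adjusted p = 0.0429 from edgeR, lower in 3 of 3 pairs), Thbs2 fell by 1.99 (SE 0.234, adjusted p = 0.0464 from edgeR, 3 of 3 pairs) and Eln fell by 1.68 (SE 0.201, adjusted p = 0.0464 from edgeR, 3 of 3 pairs). All 3 adjusted p-values lie just under the threshold of 0.05, and over the alternative fits they ran from 2.45e-19 to 1.00 for Thbs1, 2.19e-15 to 1.00 for Thbs2 and 1.82e-08 to 1.00 for Eln. With DESeq2's size factors in edgeR, which called 0.748% of the genes lower, Eln lost its call (adjusted p = 0.0547 from edgeR), and 2 of the 10 genes were called. None of the 3 was called without day 3, without day 9 or without the day block, settings in which 0 genes of the whole table were called.

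The other 7 genes missed the threshold, which does not show that FGF8 left them unaltered. Fbn1 (log2 fold change -1.38, SE 0.187, adjusted p = 0.0534 from edgeR) and Loxl1 (-0.90, SE 0.159, adjusted p = 0.0788 from edgeR) were lower in 3 of 3 pairs and missed narrowly. Postn, Sparc and Lox had larger fitted changes (-2.25, -1.44 and -2.19) with larger standard errors (0.524, 0.373 and 0.813), and edgeR's adjusted p-values of 0.113, 0.131 and 0.202. For Fn1 (-1.22, SE 0.688) and Tnc (-0.77, SE 1.02), which were lower in 2 of 3 pairs, edgeR's adjusted p was 0.340 and 0.678. Without day 0, 11.6% of 14367 genes were called lower, and 9 of the 10 genes were among them, all but Sparc (adjusted p = 0.0914 from edgeR), with Fn1 at -2.09 (SE 0.311, adjusted p = 0.00467 from edgeR) and Tnc at -1.98 (SE 0.219, adjusted p = 0.00146 from edgeR). Over all alternatives the adjusted p from edgeR or DESeq2 lay between 0.00467 and 1.00 for Fn1, 0.00146 and 1.00 for Tnc and 0.000307 and 1.00 for Sparc.

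The course from day 0 to day 3 was a second comparison, made within each group. In untreated cells 6 of the 10 were lower by at least 2-fold on day 3, beside 15.5% of 13087 genes, and 2 were at least 2-fold higher, beside 19.5%. The 6 were Thbs2 (log2 fold change -2.99), Lox (-2.03), Tnc (-2.01), Postn (-1.76), Fbn1 (-1.55) and Thbs1 (-1.37). The 2 higher genes were Eln (2.54) and Loxl1 (1.63), a count near the share of all genes. Both belong to elastic fiber assembly, as do Fbn1 and Lox among the 6 lower genes. Fn1 (-0.55) and Sparc (-0.041) stayed within 2-fold, and the sign of the small Sparc difference depends on the scaling, at 0.060 with TMM factors.

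In FGF8-pretreated cells 5 of the 10 were at least 2-fold lower at day 3 than at day 0, beside 22.0% of 13013 genes, and 3 at least 2-fold higher, beside 24.1%. Tnc was 89.1-fold lower (log2 fold change -6.48, interval -6.62 to -6.35) and Fn1 9.30-fold lower (-3.22, interval -3.23 to -3.20). The other 3 lower genes were Thbs2 (-3.27), Fbn1 (-1.84) and Thbs1 (-1.47). Eln (3.40), Loxl1 (2.01) and Sparc (1.18) were higher, a count near the share of all genes. For Lox the difference was 0.87 (interval 0.81 to 0.92), against -2.03 in untreated cells, and for Postn it was 0.061, whose sign turns with total counts (-0.14), against -1.76.

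**Figure D3:**
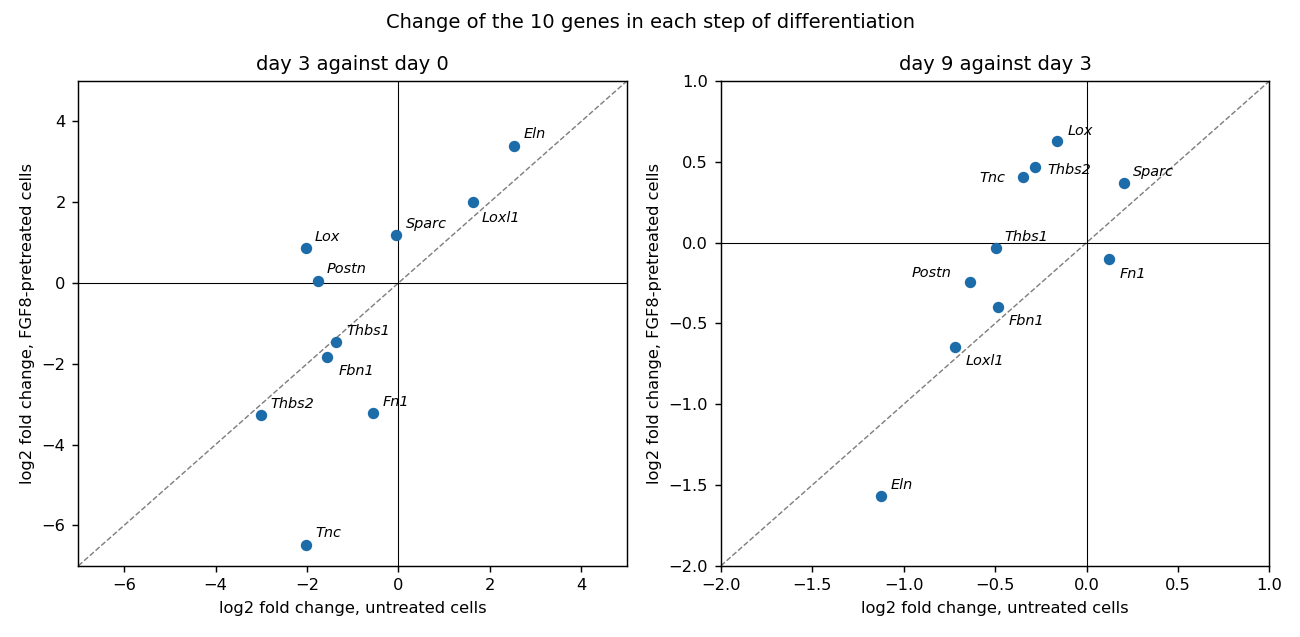
The log2 fold change of each of the 10 genes in untreated cells (x axis) and in FGF8-pretreated cells (y axis), from day 0 to day 3 (left) and from day 3 to day 9 (right), 1 point per gene, with a dashed line where both are equal. On the left, Eln and Loxl1 lie high in both groups, Fn1 and Tnc lie far under the line and Lox lies above it; the right panel spans a narrower range, with Eln lowest in both groups.

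A step shared by both treatments was tested in edgeR's quasi-likelihood fit with treatment as a block. It called 19.8% of 14569 genes lower and 26.2% higher at day 3 than at day 0. Of the 10 genes, 4 were called lower and 2 higher, the latter count near the share of all genes. Thbs2 fell by 3.06 (SE 0.297, adjusted p = 0.00387 from edgeR), Fbn1 fell by 1.63 (SE 0.231, adjusted p = 0.00743 from edgeR), Thbs1 fell by 1.35 (SE 0.197, adjusted p = 0.00790 from edgeR) and Tnc fell by 4.59 (SE 1.31, adjusted p = 0.0411 from edgeR), each in 2 of 2 groups. Eln rose by 3.02 (SE 0.259, adjusted p = 0.00324 from edgeR) and Loxl1 rose by 1.88 (SE 0.200, adjusted p = 0.00446 from edgeR), also in both groups. In the alternative fits the highest adjusted p was 0.352 for Thbs1, 0.170 for Fbn1, 0.0922 for Thbs2 and 0.0702 for Eln, all 4 lost without the treatment block, and stayed under 0.05 for Tnc (highest 0.0477) and Loxl1 (highest 0.0485). The fitted changes of Fn1, Postn, Sparc and Lox were -2.06, -0.93, 0.58 and -0.90, with edgeR's adjusted p-values of 0.0981, 0.262, 0.330 and 0.463.

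From day 3 to day 9 the 10 genes differed less. In untreated cells 1 gene, Eln (log2 fold change -1.12, interval -1.22 to -1.03), was at least 2-fold lower, beside 4.42% of 13153 genes, and 0 were higher, beside 8.77%. In FGF8-pretreated cells Eln was again the 1 lower gene (-1.57, interval -1.72 to -1.43), beside 5.40% of 12869 genes, and 0 were higher, beside 8.16%. Loxl1 was lower in both groups (-0.72 and -0.64), as were Fbn1 (-0.49 and -0.40) and Postn (-0.64 and -0.24), and Sparc was higher in both (0.20 and 0.37). Thbs1 had -0.50 in untreated cells and -0.033 in pretreated cells, where its counting interval included 0. For Fn1 the values were 0.12, whose sign turns with total counts, and -0.10. In edgeR's quasi-likelihood test, 0.00686% of 14569 genes were called lower and 0.0618% higher in this step, and none of the 10 was called in either direction. Eln (-1.38, SE 0.240, adjusted p = 0.0867 from edgeR) and Loxl1 (-0.70, SE 0.194, adjusted p = 0.150 from edgeR) were the 2 of the 10 with an unadjusted p under 0.05, where 10.3% of all genes tested were lower by that rule. DESeq2 called these 2 lower by adjusted p, beside 2.39% of the 19835 genes with a p-value.

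Genes that act with the 10 were described by lists, chosen by function and with earlier results of these data known. Of 18 other genes of elastic fibers and microfibrils, 8 were at least 2-fold lower after FGF8 at day 0 and 1 higher. At day 3, 16 were lower and 0 higher, and at day 9, 13 of 17 were lower and 0 higher. Of all genes, 10.8%, 12.1% and 8.74% were lower by this rule on the 3 days, and 7.27%, 3.80% and 1.12% higher. The median log2 fold changes of the list were -0.93, -1.43 and -1.62. edgeR's test over the days called 5 of the 18 lower and 0 higher (Emilin1, Fbln1, Fbln5, Mfap2 and Mfap5), beside the 1.25% of all genes given above. Mfap5, a microfibril-associated glycoprotein, had -2.51, -4.09 and -3.10 at days 0, 3 and 9, and Emilin1, an elastin-associated protein, had -2.07, -1.31 and -1.75. Fbn2, the fibrillin of development, had -3.45, -1.22 and -1.28, and Mfap2 had -2.17, -1.49 and -1.88.

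Among 16 other matricellular genes, 13 were abundant enough on each day. Of these, 8 were at least 2-fold lower at day 0, 11 at day 3 and 8 at day 9, with 1, 1 and 0 higher. The shares of all genes were 10.8%, 12.1% and 8.74% lower and 7.27%, 3.80% and 1.12% higher. The medians of the list were -1.52, -1.73 and -1.21. edgeR called 1 of 15 lower (Thbs3), beside 1.25% of all genes, and 0 higher. Ccn5, a CCN family protein, had -4.30, -2.66 and -2.46, and Smoc2, of the Sparc family, had -5.89, -3.21 and -3.15. The tenascin Tnxb had -4.78, -2.74 and -1.65, and so unlike Tnc it was lower at day 0. Ccn3 had -2.05, -1.79 and -3.40. Spp1 (osteopontin), the gene at least 2-fold higher at days 0 and 3, is named after its values were seen and had 6.69, 1.08 and -0.63.

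Fibronectin is bound by integrins and by the proteoglycan Sdc4. Of 9 such receptor genes, 7 were abundant enough at days 0 and 3 and 8 at day 9. Of these, 1, 4 and 2 were at least 2-fold lower, beside 10.8%, 12.1% and 8.74% of all genes. The count of day 0 is near that share. None was at least 2-fold higher, beside 7.27%, 3.80% and 1.12%. The medians of the list were -0.19, -1.13 and -0.68. edgeR called 0 of 8, with 3 lower at an unadjusted p under 0.05, beside 1883 of 14569 genes. DESeq2 called 3 lower, beside 1221 of 19835 genes with a p-value. Itga5, the alpha chain of the classical fibronectin receptor, had 0.59, -1.16 and -0.99, and its partner Itgb1 had 0.24, -0.66 and -0.48, both named for their role after their values were seen. Itga8 had -2.46, -1.13 and -2.08. TGF-beta is a main inducer of matrix genes, and its ligands, receptors and feedback genes formed a list of 12. Of these, 3, 6 and 3 were at least 2-fold lower on the 3 days and 1, 0 and 0 higher, beside the same shares of all genes. The medians of this list were -0.54, -0.90 and -0.26. edgeR called 2 of 12 lower, beside 1.25% of all genes. They were Tgfb2 (-2.67, -2.24 and -3.13) and Tgfbr2 (-1.58, -1.17 and -1.09). In none of these 4 lists was a gene higher at an unadjusted p under 0.05 in edgeR or called higher by DESeq2.

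**Figure D4:**
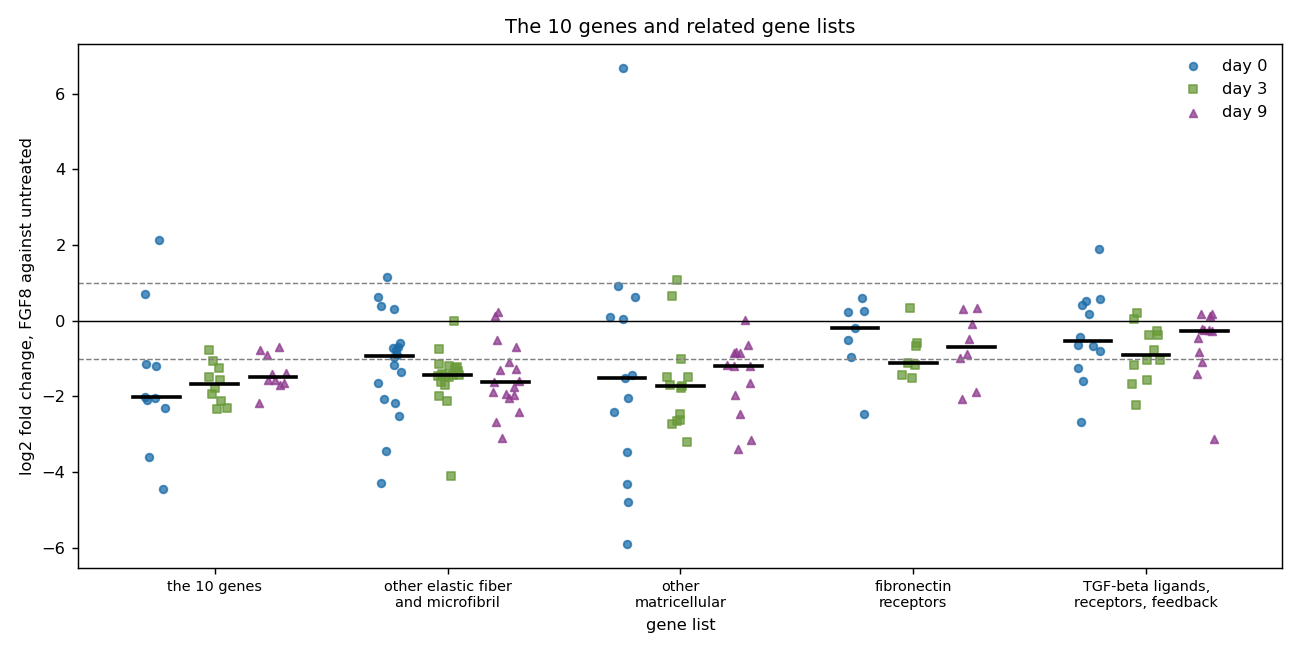
The log2 fold change of FGF8-pretreated against untreated cells (y axis) for single genes of 5 lists (x axis) at day 0 (circles), day 3 (squares) and day 9 (triangles), with a bar at each median and dashed lines at 2-fold. The medians of the 10 genes are -2.03, -1.67 and -1.48, and those of the fibronectin receptors are -0.19, -1.13 and -0.68.

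Markers of cell types were read beside these results. Of 6 preadipocyte markers, 5 were at least 2-fold lower after FGF8 at day 0, beside 10.8% of all genes. At days 3 and 9, 5 of 5 were, beside 12.1% and 8.74%. The medians of these markers were -2.11, -1.79 and -1.84. Their summed normalized counts were 130291, 37585 and 29734 in untreated and 29271, 10254 and 6869 in FGF8-pretreated cells. Of 8 mature adipocyte markers at day 3, 3 were at least 2-fold higher, beside 3.80% of all genes, and none lower, beside 12.1%. The 3 were Ucp1 (3.74), Cidea (3.61, with 26 counts in the untreated library) and Fabp4 (1.04, just over the rule). The median of the 8 was 0.83, and their sum was 357770 in untreated and 626366 in pretreated cells. At day 9 their median was 0.29, with sums of 610149 and 710031, and at day 0 the sums were 8662 and 3697. Most of the day 0 sums came from Lpl, at 8251 and 2025, and in pretreated cells also from Ucp1, at 1328. Smooth muscle and pericyte markers summed to 4717, 7403 and 4357 in untreated and to 973.0, 2472 and 3587 in pretreated cells. Of those abundant enough, 4 of 5, 4 of 7 and 1 of 6 were at least 2-fold lower on the 3 days, beside 10.8%, 12.1% and 8.74% of all genes. Des, named after its values were seen, went the other way at 0.26, 1.14 and 0.86, with 5 and 7 counts at day 0. The preadipocyte and smooth muscle sums were lower in the pretreated library on each day, as most of the 10 genes were, and the adipocyte sum was higher at days 3 and 9. The part of these cell states in the results was not tested.

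Markers of other cells were low. Endothelial markers summed to between 203.7 and 1635 normalized counts in untreated and between 37.4 and 75.5 in pretreated cells, mostly from Kdr and Tek, and were lower in the pretreated library on each day. Cdh5, which defines endothelial cells, had at most 8.96. The 7 macrophage markers summed to between 60.2 and 155.5, with the defining markers Adgre1 and C1qa at 0 in every library and Ptprc at 0 in all but 1, where it had 1.28. The 5 proliferation markers had median log2 fold changes of 0.37, 0.39 and 0.32 on the 3 days.

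The genes whose pattern over the 6 libraries was most like each of the 10 were found by Pearson's r of log2(normalized count + 1), over genes that averaged 100 normalized counts or more. With 6 points that share the same days and libraries, such values are high by choice and are given as a description. Eln was closest to Scara5 (0.998), Gata6 (0.993) and Loxl1 (0.991), the last a crosslinking enzyme. Eln was not among the 3 genes closest to Loxl1, and r of Eln and Lox was 0.36. The closest 3 were Olfml3 (0.992), Sh3d19 (0.991) and Spsb2 (0.988) for Thbs1 and Slc44a1 (0.998), Vwa5a (0.998) and Tmem59 (0.997) for Thbs2. Fbn1 had Gsdmd (0.998), Ifit2 (0.998) and Casp9 (0.997), and Postn had Plce1 (0.9997), Apc2 (0.995) and Dhx58 (0.991). Fn1 was closest to Vamp5 (0.993), Mir100hg (0.992) and Loxl4 (0.992), the last another lysyl oxidase, and Tnc to Ctsl (0.997), Jak2 (0.996) and Rap1b (0.995). For Sparc they were Ptprv (0.989), Tap1 (0.987) and Phactr2 (0.985). Lox was closest to Adam23 (0.995), Ccdc6 (0.992) and 5930403N24Rik (0.987), and Loxl1 to Mapkapk3 (0.999), Nfatc4 (0.998) and Med15 (0.997). Between members, r was 0.978 for Thbs2 and Fbn1, 0.955 for Thbs1 and Fbn1, 0.941 for the thrombospondins, 0.933 for Postn and Lox and 0.922 for Fn1 and Tnc. The crosslinking enzymes Lox and Loxl1 had 0.32, and Tnc and Loxl1 had -0.69.

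In the annotation, 8 of the 10 genes (all but Sparc and Thbs2) share exon sequence with a long noncoding RNA on the opposite strand, and the strand setting of the counting was not given in the sources used here. Of these RNAs, 2 are listed in the files. Apol7d, opposite Fn1, had between 2 and 5 counts per library and Gm13986, opposite Thbs1, had between 0 and 4.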

How the data were processed

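Bulk RNA sequencing libraries of immortalized brown preadipocytes and adipocytes were grouped by treatment and day from the sample labels, with 1 library per condition. The authors prepared the libraries with a stranded mRNA kit, used TrimGalore for trimming of the paired-end reads, HISAT2 for alignment to GRCm39 and featureCounts for counting by gene, and deposited the raw counts. Tool versions, the annotation and the strand setting were not given in the sources used here. Of the 26264 symbols, 23897 were found in GENCODE M39, which gave coordinates, exon lengths and transcript starts; total counts per library lay between 16403254 and 38551551, and no 2 libraries had identical counts.

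Counts were divided by DESeq2 (1.42.0) size factors over the 6 libraries. Fold changes are differences of log2(normalized count + 1), with a 95% exact binomial (Clopper-Pearson) interval for the 2 counts, and the 2-fold rule was applied to genes whose 2 libraries averaged 20 or more. Shared effects were tested with edgeR (4.0.16; TMM, filterByExpr, quasi-likelihood F test, Benjamini-Hochberg, adjusted p under 0.05), with 2 residual degrees of freedom and standard errors taken from the F statistic. Since libraries of different days or treatments stand in for replicates, its p-values measure agreement across them and not variation between cultures of 1 condition. Simulated data were used for edgeR's FGF8 and day 3 against day 0 tests, and for the fold rule and counting interval of day 0. For edgeR, 200 genes were changed 4-fold, by the same factor on each day or in each group. Software was pandas 2.3.3, scipy 1.17.1, Python 3.11.15 and R 4.3.3.

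The 10 genes, the other lists, the motifs and the markers were chosen with earlier results of these data known. All 10 genes are named; from each related list, up to 4 genes that passed the 2-fold rule on most days; and for each of the 10 up to the 3 genes with the highest Pearson correlation. The genes called by edgeR in a list, Spp1, Itga5 and Itgb1 were named in addition. Alternatives were TMM factors, total counts, size factors within the pair, pseudocounts of 0.5 and 5, 1.5-fold and 4-fold rules, a minimum mean of 100 and no minimum, the Wald test of DESeq2, DESeq2's size factors in edgeR, no block, and leaving out each day.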

Additional observations from a re-analysis of the deposited data

Results flagged for a closer look

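Fn1 and Tnc were higher after FGF8 at day 0 and lower later, each beyond its counting interval and with the same signs under the 3 other scalings tried. The log2 fold changes of Fn1 were 0.72, -1.95 and -2.17 at days 0, 3 and 9, and those of Tnc were 2.13, -2.33 and -1.58. With 1 library per condition, how the days differ was not tested.

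Some steps of differentiation went opposite ways in untreated and FGF8-pretreated cells by the same measure, and these differences were not tested either. From day 0 to day 3, Lox had -2.03 in untreated and 0.87 in pretreated cells. From day 3 to day 9, Lox had -0.16 and 0.63, Thbs2 -0.28 and 0.47, and Tnc -0.35 and 0.41.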

How the results depend on the processing

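The numbers of the 10 genes at least 2-fold lower or higher, in each of the 7 comparisons, were the same or within 1.5 times under the TMM, total-count and within-pair scalings, the other pseudocounts and the other filters on low counts. With a 4-fold rule, 3 genes were lower after FGF8 at day 3 (beside 2.08% of all genes) and 1 at day 9 (2.71%). From day 0 to day 3, 3 were then lower (5.10%) and 1 higher (8.76%) in untreated cells and 3 lower (9.50%) in FGF8-pretreated cells, and from day 3 to day 9, 0 were lower in either group (0.715% and 0.855%). With a 1.5-fold rule, 2 were higher after FGF8 at day 0 (16.9%), and from day 3 to day 9, 3 were lower in untreated cells (12.8%) and 2 lower (13.8%) and 1 higher (16.5%) in pretreated cells. Signs turned for 3 small differences: Sparc from day 0 to day 3 in untreated cells (0.060 with TMM), Postn in the same step in pretreated cells (-0.14 with total counts) and Fn1 from day 3 to day 9 in untreated cells (-0.022 with total counts). Total counts moved the median of all genes from day 0 to day 3 in pretreated cells from -0.040 to -0.25. From day 3 to day 9 in untreated cells, 581 genes were lower and 1154 higher, and 819 and 955 with total counts.

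In the test of a shared FGF8 effect, edgeR called 3 of the 10 genes lower. DESeq2's Wald test called 7, DESeq2's size factors in edgeR gave 2, leaving out day 0 gave 9, and leaving out day 3, leaving out day 9 or dropping the day block gave 0 each. In those 3 settings 0 genes of the whole table were called, with 1173, 1197 and 513 lower and 337, 671 and 62 higher at an unadjusted p under 0.05. Over all genes the test called 182 lower and 3 higher, 1221 and 475 with DESeq2, 109 and 1 with DESeq2's size factors in edgeR, 269 and 6 without the filter, and 1661 and 569 without day 0. The fitted Tnc change was 1.61 without the day block and 0.25 without day 3. For day 3 against day 0, dropping the treatment block left 1 of the 10 genes lower and 1 higher. In that setting 1671 of 14569 genes were called lower and 2765 higher. For day 9 against day 3, DESeq2 called 2 of the 10 lower, beside 2.39% of the 19835 genes with a p-value. The cause of these shifts was not tested. The day block paired the libraries of each day, so leaving out a day left out a pair. No paired analysis was possible by replicate number because each condition had 1 library.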
